A study of Mus musculus with 12 samples.

Results

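The 6 genes described here are *Igf1*, which encodes insulin-like growth factor 1; *Igf1r*, *Igf2r* and *Insr*, which encode receptors; *Irs2*, which encodes an adaptor of the receptors; and *Igfbp4*, which encodes a binding protein of the ligand. The members were the rows of the count table whose Ensembl identifiers carry these 6 symbols in the annotation of the mouse genome GRCm38, out of 55487 genes in all. Of the 6 members, 5 passed the filter on low counts and belong to the 16908 genes tested, and *Igf2r* did not pass.

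The cells were microglia of YARG mice, which carry a YFP reporter, at postnatal day 13. Cells of the basal forebrain and striatum that carried CX3CR1, a chemokine receptor of microglia, and lacked CD206, a receptor of border macrophages, were sorted into YFP-positive (ARG1+) and YFP-negative (ARG1–) populations of the same genotype. Each of the 4 groups of population and sex has 3 libraries, made from amplified full-length cDNA of several mice of 1 sex pooled together, and libraries are called below by their number in the labels (ARG1– female 1, 2 and 13; ARG1+ female 7, 8 and 15; ARG1– male 5, 6 and 14; ARG1+ male 11, 12 and 16). Per the study's methods both populations were sorted from pooled tissue, but the labels do not say which libraries came from the same pool or litter, so p-values measure the spread between these libraries and ignore any such sharing.

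IGF1 is a secreted hormone and local growth factor that in the postnatal brain is made by neurons, microglia and other cells, and microglia are known to use it to support neurons and the formation of myelin. It binds the tyrosine kinase receptor IGF1R, and insulin binds the related receptor INSR. Both receptors phosphorylate adaptors such as IRS1 and IRS2, which recruit the kinases of the PI3K, AKT and mTOR route, while adaptors of the RAS and MAPK route carry the other main branch. IGF2R takes up IGF2 and lysosomal enzymes without a kinase of its own, and IGF binding proteins hold the ligand outside the cell until proteases release it.

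To show the regions in front of these genes, the 250 bases before the start site that RefSeq gives (build GRCm38.p6) are printed 5′ to 3′ for *Igf1*, *Igfbp4* and *Irs2*, the first 2 because they were the members whose levels did not overlap between the populations, and *Irs2* because its region held 2 of the motifs searched side by side. The *Igf1* bases are chr10:87860861-87861110 on the plus strand, the *Igfbp4* bases are chr11:99040994-99041243 on the plus strand and the *Irs2* bases are chr8:11008930-11009179 on the minus strand. Capitals mark a match to one of the motifs.
Igf1: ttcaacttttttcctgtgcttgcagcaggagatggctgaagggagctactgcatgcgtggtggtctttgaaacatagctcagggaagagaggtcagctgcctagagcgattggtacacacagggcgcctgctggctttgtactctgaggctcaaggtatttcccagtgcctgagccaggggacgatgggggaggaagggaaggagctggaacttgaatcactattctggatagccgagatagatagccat
Igfbp4: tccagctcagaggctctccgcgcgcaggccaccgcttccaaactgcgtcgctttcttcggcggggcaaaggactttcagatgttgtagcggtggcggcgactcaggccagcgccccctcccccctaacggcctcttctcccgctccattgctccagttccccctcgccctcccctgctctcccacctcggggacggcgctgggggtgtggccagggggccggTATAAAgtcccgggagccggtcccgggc
Irs2: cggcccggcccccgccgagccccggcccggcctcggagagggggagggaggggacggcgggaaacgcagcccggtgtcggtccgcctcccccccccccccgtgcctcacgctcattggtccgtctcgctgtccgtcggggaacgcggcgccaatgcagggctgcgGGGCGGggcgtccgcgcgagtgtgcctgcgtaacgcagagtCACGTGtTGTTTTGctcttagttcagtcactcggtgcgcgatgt

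The motifs were searched on both strands of RefSeq windows that run from 250 bases before to 50 bases after a start site, for which 5 of the 6 members had an entry (*Insr* had none). The E-box was searched as CACGTG, and its extended form, which MiT/TFE factors bind and which contains the former, as TCACGTGA. The site of the myeloid factor PU.1 was searched as GAGGAAGT and that of FOXO factors as TGTTTAC. The insulin response element was searched as TGTTTTG. The GC box, to which the ubiquitous activator Sp1 binds, was searched as GGGCGG. The core promoter element that the general initiation machinery recognises was searched as TATAAA. None of these 7 motifs was in the window of *Igf1*. The *Igfbp4* window held the last of these, which began at -28, with -1 the last base before the start site, and 13.6% of all 32851 windows of this length held one. The *Irs2* window held an E-box that began at -44, an insulin response element that began at -37 and a GC box that began at -85. Of all windows 7.15% held the E-box and 6.28% the insulin response element, and 0.408% held both. The *Igf2r* window held the extended E-box at -49 and again at -8, beside 3 GC boxes, and 0.974% of all windows held the extended E-box at least once. The *Igf1r* window held a pair of GC boxes, at -43 and -26, and 35.7% of all windows held at least 1. In base composition *Igf1* stood apart, with 52.3% G and C in its window (47.8% of all windows had less), against 70.7% to 76.0% in the other 4 members (at least 91.4% of all windows had less). A match describes the letters of these windows only, and the RefSeq start site coincides with the GENCODE start for *Igfbp4* alone.

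Libraries held between 28356659 and 46569667 counts for ARG1+ and between 30954399 and 60625170 counts for ARG1– microglia. Levels are given as CPM, which divides a gene's count by the TMM-scaled size of the library, and 3 counts equal at most 0.102 CPM in these libraries. The 10 microglial markers listed together took 53550 to 65870 CPM in ARG1+ and 63080 to 88020 CPM in ARG1– libraries, and 6 of them were lower and 1 (*Sall1*) higher in ARG1+ microglia. The populations are known here by the YFP sort. Of the 16908 genes tested, 1089 (6.44%) had more and 1593 (9.42%) had less transcript in ARG1+ microglia by edgeR's quasi-likelihood test, at an adjusted p under 0.05. In all 6 ARG1+ libraries 3.48% of the genes lay above, and 6.56% below, all 6 ARG1– libraries. Against these shares, 3 of the 5 members tested were higher (*Igf1*, *Igf1r* and *Irs2*), 1 was lower (*Igfbp4*) and *Insr* did not pass the test. Of these 5, only *Igf1* lay above and only *Igfbp4* below in all libraries.

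**Figure D1:**
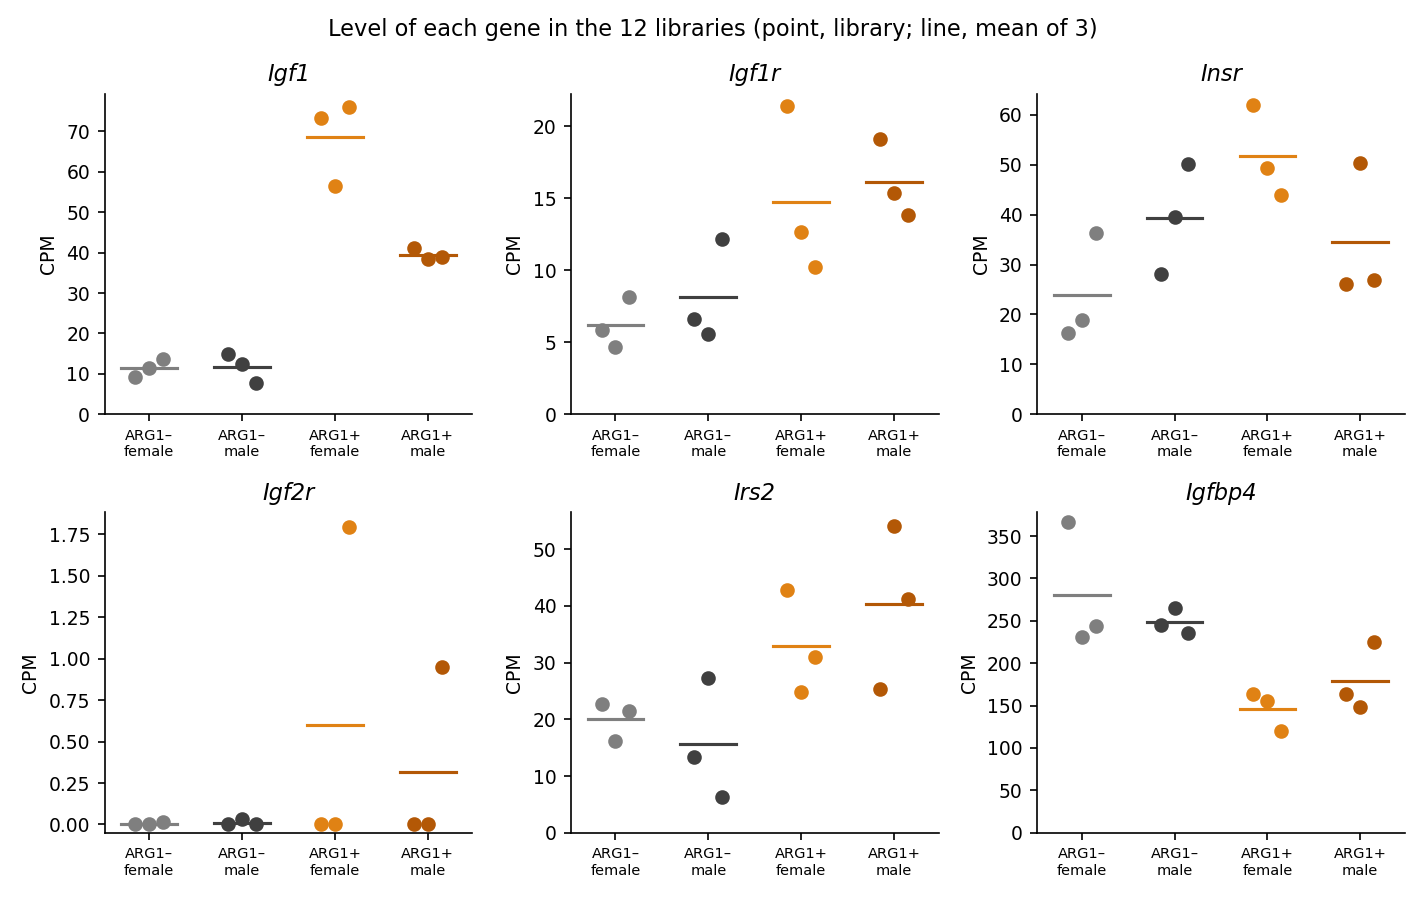
Level of the 6 genes in CPM in each of the 12 libraries (points, in the order of their numbers) with the mean of the 3 libraries of a group (lines), each panel on its own axis. ARG1+ libraries lie above all ARG1– libraries for *Igf1* and below them for *Igfbp4*, while the populations overlap for *Igf1r*, *Insr* and *Irs2*, and *Igf2r* is near 0 in all but 2 libraries.

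The question asked of the ligand was whether ARG1+ microglia carried more of its transcript than their ARG1– neighbours. *Igf1* (ENSMUSG00000020053, chr10:87858265-87937042 on the plus strand, GRCm38) was higher in ARG1+ microglia in both sexes. Its level was 54.1 ± 17.3 CPM (SD, n = 6) in ARG1+ libraries, with 38.5 as the lowest, 48.8 as the median and 76.0 as the highest. In ARG1– libraries it was 11.5 ± 2.68 CPM (SD, n = 6), with 7.76 as the lowest, 11.9 as the median and 14.9 as the highest. Every ARG1+ library thus held more *Igf1* than every ARG1– library, with 1315 to 2668 counts behind the ARG1+ and 262 to 797 behind the ARG1– values. The fitted fold change was 4.51, or 2.17 ± 0.22 (SE) on the log2 scale, with a 95% confidence interval of 1.71 to 2.64 and an adjusted p of 0.000275 (edgeR), and *Igf1* ranked 16 of the 16908 genes by p. In bulk libraries, a difference in the share of cells that express a gene and a difference in its RNA per cell cannot be told apart.

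In ARG1– microglia *Igf1* was at 9.18, 11.4 and 13.6 CPM in female and 14.9, 12.4 and 7.76 CPM in male libraries. The sexes overlapped there, and the log2 difference of females from males was -0.04 with a 95% confidence interval of -0.58 to 0.50 (adjusted p = 0.998, edgeR), in a comparison that 0.0946% of all genes passed. In ARG1+ microglia the 3 female libraries held 73.4, 56.6 and 76.0 CPM and the 3 male libraries 41.1, 38.5 and 39.0 CPM. All ARG1+ female libraries lay above all ARG1+ male libraries. This is a split of 3 against 3 libraries, and the share of all genes with such a split was not counted. By edgeR, *Igf1* was 6.03-fold higher in ARG1+ than in ARG1– female microglia (adjusted p = 0.00116) and 3.38-fold higher in males (adjusted p = 0.0113). Of all genes 6.76% (1143) and 5.13% (868) passed this test in females and males. With 1 library left out these counts fell to as few as 91 and 8. Without ARG1+ male 12 or ARG1+ male 16 the *Igf1* difference in males no longer passed (adjusted p = 0.0613 and 0.0519). The effect in females exceeded that in males by 0.84 ± 0.35 (SE) on the log2 scale, which did not pass the correction over all genes (unadjusted p = 0.0345, adjusted p = 0.499). No gene passed this edgeR test of the difference between sexes, 1576 had an unadjusted p under 0.05, and DESeq2 called 214. The direct comparison of female with male ARG1+ microglia likewise missed the limit for *Igf1* (0.80 ± 0.25 (SE) on the log2 scale, unadjusted p = 0.00757, adjusted p = 1 by edgeR), and 0.0355% of all genes passed it.

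Other values moved with *Igf1*. The summed level of 8 retained-intron and nuclear RNAs was 3610 to 6730 CPM in ARG1+ and 1573 to 3320 CPM in ARG1– libraries, and 4 of the 8 were higher by edgeR (*Rsrp1*, *Ccnl1*, *Ccnl2* and *Neat1*). The log2 fold change was greater in females than in males for 7 of the 8, as for *Rsrp1* (1.73 and 0.92). The 7 include *Meg3*, which was lower in ARG1+ libraries in both sexes and less so in females (-1.46 and -4.23). For none of the 8 did the difference between sexes pass the correction (adjusted p of at least 0.277, edgeR). *Ccnl2* was at 342, 361 and 323 CPM in ARG1+ female and 279, 279 and 243 CPM in ARG1+ male libraries, so that it separated the sexes within ARG1+ microglia as *Igf1* did. *Rsrp1* and *Neat1* did not. *Rsrp1* was at 2796 CPM in ARG1+ male 11 and 2574 CPM in ARG1+ female 15. *Neat1* was at 48.3 CPM in ARG1+ male 12 and 35.8 CPM in ARG1+ female 7. Border macrophages also make *Igf1*, and the summed level of their 10 markers was 402 to 841 CPM in ARG1+ against 297 to 516 CPM in ARG1– libraries. Of these markers 2 were higher in ARG1+ microglia, *Stab1* and *Folr2*. *Stab1* alone made up most of the sum, at 431 ± 138 CPM in ARG1+ and 239 ± 75.2 CPM in ARG1– libraries (SD, n = 6). *Folr2* averaged 8.40 and 2.84 CPM. *Mrc1*, the gene of CD206, was at 147 ± 46.4 CPM in ARG1+ and 121 ± 16.1 CPM in ARG1– libraries (SD, n = 6) and did not pass (adjusted p = 0.371 by edgeR). *Ms4a7* was at 1.32 to 4.16 CPM in ARG1+ libraries, and in ARG1– libraries at 0 in 4, at 0.724 in female 2 and at 1.39 in male 14, which overlapped (adjusted p = 0.176). *Cbr2* was at 1.99 and 3.40 CPM (adjusted p = 0.281), and *Pf4* and *F13a1* did not pass either. *Cd163*, *Lyve1* and *Clec10a* had at most 21 counts in any library. The part of either group of transcripts in the *Igf1* differences was not tested.

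By the Pearson correlation of log2 CPM over the 12 libraries, the genes whose pattern was most like that of *Igf1* were *AC154912.3* (r = 0.969), *Gm44116* (0.966), *Ccnl2* (0.965), *Gm43654* (0.964) and *Snord59a* (0.962). Only *Ccnl2*, the gene of cyclin L2, was well detected among these, at 305 CPM in ARG1+ and 130 CPM in ARG1– libraries. The others averaged at most 2.85 CPM in ARG1+ and 0.150 CPM in ARG1– libraries. In ARG1– libraries *Gm44116* and *Snord59a* were at 0 CPM and *Gm43654* at 0.0044 CPM. These genes passed the filter on low counts only through ARG1+ libraries, so their r largely restates the ARG1 contrast. With the means of the 4 groups taken off, the nearest were *Gm48614* (0.948), *Gm4673* (0.944), *Trip4* (0.930), *A430018G15Rik* (0.929) and *Rab11fip2* (0.925), and no gene stood in both lists. These correlations are descriptions over libraries that share the ARG1 contrast and the differences in depth.

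Both signalling receptors were higher in mean in ARG1+ microglia, but only *Igf1r* passed the test, and it no longer did once the trend on gene length and GC content was removed (log2 fold change 0.83, adjusted p = 0.0776, edgeR). *Igf1r* (ENSMUSG00000005533, chr7:67952827-68233668 on the plus strand) encodes the kinase receptor of IGF1. It was at 15.4 ± 4.17 CPM (SD, n = 6; lowest 10.2, median 14.6, highest 21.4) in ARG1+ libraries. In ARG1– libraries it was at 7.15 ± 2.73 CPM (SD, n = 6; lowest 4.64, median 6.20, highest 12.2). The populations overlapped through ARG1– male 14, which at 12.2 CPM exceeded ARG1+ female 15 at 10.2 CPM, while the other 5 ARG1– libraries lay below all ARG1+ libraries. The fold change was 2.17, or 1.12 ± 0.27 (SE) on the log2 scale (adjusted p = 0.015, edgeR). The log2 fold change was 1.25 ± 0.39 in females and 0.99 ± 0.39 in males (SE), and neither sex alone passed by edgeR (adjusted p = 0.0816 and 0.16), whereas DESeq2 called the female effect (1.31, adjusted p = 0.0174). A test of the difference between sexes gave an adjusted p of 0.962.

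*Insr* (ENSMUSG00000005534, chr8:3122061-3279617 on the minus strand) encodes the insulin receptor. Its level was 43.1 ± 14.2 CPM (SD, n = 6; lowest 26.0, median 46.6, highest 62.0) in ARG1+ and 31.6 ± 12.9 CPM (SD, n = 6; lowest 16.3, median 32.2, highest 50.1) in ARG1– libraries. The populations overlapped widely, and the log2 fold change of 0.46 had a 95% confidence interval of -0.22 to 1.15 (adjusted p = 0.363, edgeR). Female ARG1+ libraries held 62.0, 49.3 and 44.0 CPM and female ARG1– libraries 16.3, 18.9 and 36.3 CPM, with no overlap. How many of all genes had such a split of 3 against 3 libraries was not counted. Male ARG1+ libraries held 26.0, 50.4 and 26.9 CPM and male ARG1– libraries 28.1, 39.6 and 50.1 CPM, which overlapped. The log2 fold change was 1.12 ± 0.36 in females (adjusted p = 0.0884) and -0.19 ± 0.36 in males (adjusted p = 0.814). The difference between these effects was 1.31 ± 0.51 (SE) and did not pass the correction (unadjusted p = 0.0256, adjusted p = 0.491, edgeR). The female effect passed without ARG1– female 13 (1.55, adjusted p = 0.0474), with at least 10 counts required in every library (1.18, adjusted p = 0.0407) and by DESeq2 (1.18, adjusted p = 0.0148). It was at 0.82 with the length and GC trend removed (adjusted p = 0.177), and without ARG1– female 1 it was at 0.90 (adjusted p = 0.215), the lowest of the fits that left out 1 library. Of the 8 retained-intron and nuclear RNAs listed, *Clk4*, *Clk1* and *Malat1* had a like split. Their log2 fold changes were 1.20 in females and -0.09 in males, 0.85 and 0.01, and 1.58 and 0.25. The difference between sexes had an adjusted p of 0.456, 0.566 and 0.491 (edgeR). The 4 called higher (*Rsrp1*, *Ccnl1*, *Ccnl2* and *Neat1*) rose in both sexes. Their log2 fold changes in females and males ran from 0.98 and 0.47 for *Ccnl1* to 2.58 and 2.59 for *Neat1*. *Meg3* was lower in both (-1.46 and -4.23, not called). The part of these RNAs in the *Insr* values was not tested.

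*Igf2r* (ENSMUSG00000023830, chr17:12682406-12769664 on the minus strand), the IGF2 and mannose 6-phosphate receptor, was near the floor of detection. It had 63 counts in ARG1+ female 15 and 32 counts in ARG1+ male 16. ARG1– female 13 and ARG1– male 6 had 1 count each, and the other 8 libraries had 0. The counts were thus nearly all in 2 of the 6 ARG1+ libraries, and no fold change is given. In a library with 0 counts a level up to that of 3 counts, 0.0630 to 0.102 CPM, was not detectable, a limit that covers counting error only.

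**Figure D2:**
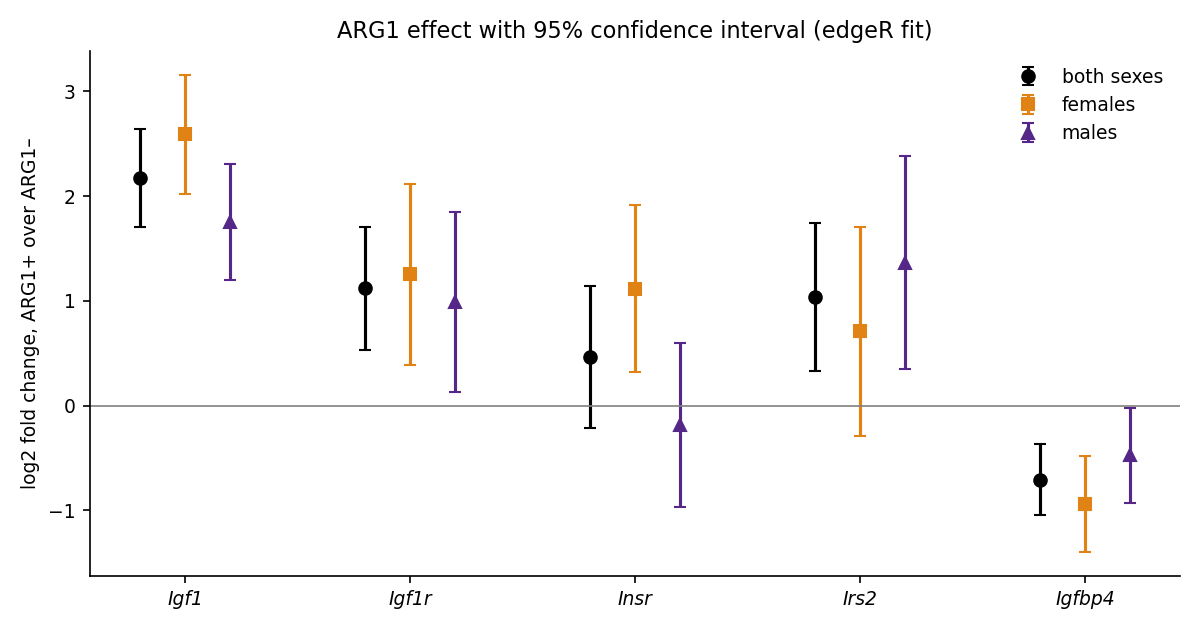
Log2 fold change of ARG1+ over ARG1– microglia for the 5 genes tested, from the edgeR fit over both sexes (circles) and within females (squares) and males (triangles), with 95% confidence intervals. The intervals of *Igf1* lie above 0 in each fit and those of *Igfbp4* below 0, while for *Insr* the female interval lies above 0 and the male interval spans it.

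*Irs2* (ENSMUSG00000038894, chr8:10984681-11008458 on the minus strand), the adaptor whose upstream bases are printed above, was higher in ARG1+ microglia at the limit of the test. Its level was 36.6 ± 11.5 CPM (SD, n = 6; lowest 24.8, median 36.2, highest 54.2) in ARG1+ libraries. In ARG1– libraries it was 17.9 ± 7.50 CPM (SD, n = 6; lowest 6.34, median 18.8, highest 27.3). The populations overlapped, since ARG1– male 6 at 27.3 CPM exceeded ARG1+ female 8 at 24.8 CPM and ARG1+ male 11 at 25.4 CPM. The fold change was 2.05, or 1.04 ± 0.33 (SE) on the log2 scale (adjusted p = 0.0497, edgeR). This call was lost in 8 of the 12 fits that left out 1 library (adjusted p up to 0.103), and was kept only without ARG1+ female 8, ARG1– male 6, ARG1– male 14 or ARG1+ male 11. The log2 fold change was 0.71 ± 0.46 in females (adjusted p = 0.404) and 1.37 ± 0.46 in males (adjusted p = 0.108, edgeR), and DESeq2 called the male effect (1.38, adjusted p = 0.0238). Of the exon bases of *Irs2*, 162 (2.56%) are shared with the opposite-strand transcript *9530052E02Rik*, and reads there cannot be assigned without strand. The sister adaptors *Irs1* and *Irs4* had 0 counts in each of the 12 libraries.

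*Igfbp4* (ENSMUSG00000017493, chr11:99041244-99054392 on the plus strand) encodes a binding protein that holds IGF1 away from its receptor. It moved against the ligand. Its level was 163 ± 34.5 CPM (SD, n = 6; lowest 120.0, median 159.6, highest 225) in ARG1+ libraries. In ARG1– libraries it was 265 ± 51.0 CPM (SD, n = 6; lowest 231, median 245, highest 366). Every ARG1+ library lay below every ARG1– library, although ARG1+ male 16, at 225 CPM, came close to ARG1– female 2 at 231 CPM. *Igfbp4* was 1.63-fold lower in ARG1+ microglia, or -0.71 ± 0.16 (SE) on the log2 scale (adjusted p = 0.0103, edgeR). In females the log2 fold change was -0.94 ± 0.21 (adjusted p = 0.0259), a call that was lost without ARG1– female 1 (0.0668), ARG1+ female 7 (0.0919), ARG1+ female 8 (0.0888) or ARG1+ female 15 (0.0991). In males it was -0.48 ± 0.21 and did not pass (adjusted p = 0.199), whereas it did pass, at -0.99 (adjusted p = 0.0121), when the trend on length and GC content and the mean of each library were removed, a setting chosen after seeing the data that lowered the median of all genes to -0.26. The difference between sexes had an adjusted p of 0.677. The summed level of 7 astrocyte markers was 130 to 151 CPM in ARG1+ and 176 to 224 CPM in ARG1– libraries. That of 8 oligodendrocyte markers was 170 to 259 and 259 to 378 CPM. In each list 1 gene was lower by edgeR (*Slc1a3* and *Cnp*), and that gene made up most of the sum. *Slc1a3* averaged 131 CPM in ARG1+ and 176 CPM in ARG1– libraries, and *Cnp* 133 and 194 CPM. The other astrocyte markers averaged at most 9.54 CPM in either population and were not called. Of these, *Aqp4*, *Aldoc*, *Slc1a2* and *Gja1* were lower and *Gfap* and *Aldh1l1* higher in mean in ARG1+ libraries. The part of such transcripts in the *Igfbp4* difference was not tested.

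The ratio of the ligand to the binding protein does not depend on the scaling of a library. ARG1+ female libraries 7, 8 and 15 had 0.449, 0.364 and 0.633 *Igf1* counts for each *Igfbp4* count, and ARG1+ male libraries 11, 12 and 16 had 0.251, 0.260 and 0.173. ARG1– female libraries 1, 2 and 13 had 0.0251, 0.0492 and 0.0556, and ARG1– male libraries 5, 6 and 14 had 0.0606, 0.0470 and 0.0328. The lowest ARG1+ library was thus above the highest ARG1– library. Within ARG1+ microglia all females were above all males, with 3 libraries of each sex and no test of that split. The mean log2 ratio was 2.91 higher in ARG1+ microglia, which is 7.53-fold. Since every ARG1+ library had more *Igf1* and less *Igfbp4* than every ARG1– library, the ratio could not overlap either, and no test of it is given.

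**Figure D3:**
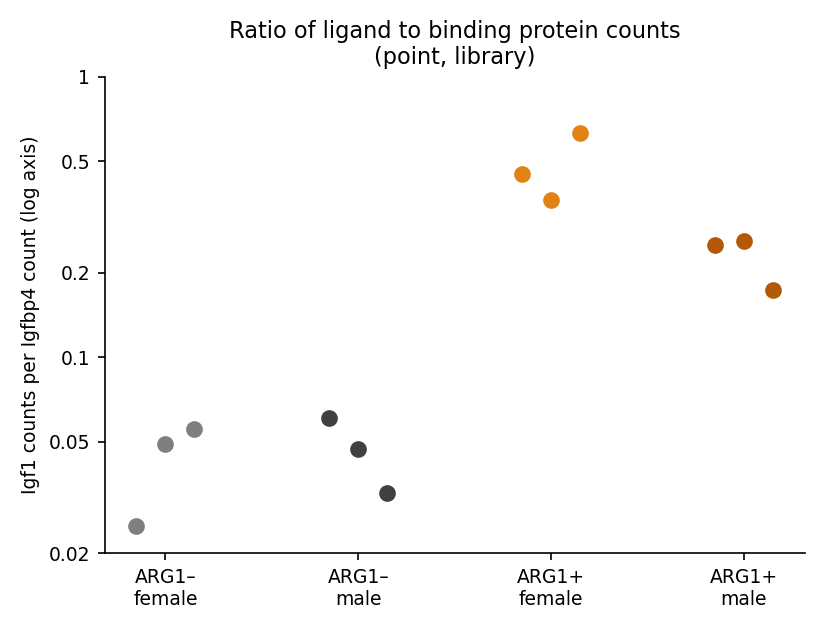
*Igf1* counts for each *Igfbp4* count in the 12 libraries (points) on a log axis, by population and sex. ARG1– libraries lie between 0.0251 and 0.0606 and ARG1+ libraries between 0.173 and 0.633, with the 3 female above the 3 male ARG1+ libraries.

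To compare levels between genes, CPM was divided by the length of the exons in kilobases. In ARG1– microglia *Igfbp4* was far above the rest at 59.9 ± 11.5 CPM per kilobase (SD, n = 6), followed by *Irs2* (2.83 ± 1.19), *Insr* (2.30 ± 0.94), *Igf1* (1.17 ± 0.27), *Igf1r* (0.426 ± 0.163) and *Igf2r* near 0. In this order *Irs2* and *Insr* overlapped, as did *Insr* and *Igf1*, while *Igf1* lay above *Igf1r* in range. In ARG1+ microglia the order was *Igfbp4* (36.8 ± 7.82), *Irs2* (5.78 ± 1.82), *Igf1* (5.46 ± 1.75), *Insr* (3.14 ± 1.03), *Igf1r* (0.919 ± 0.248) and *Igf2r* (0.0491 ± 0.0813). *Igf1* had moved past *Insr* in mean, although the ranges of *Irs2*, *Igf1* and *Insr* still overlapped one with the next, and those of *Insr* and *Igf1r* did not. The binding protein thus remained the most abundant transcript of the 6 per exon length in both populations.

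Across the 12 libraries, log2 CPM of *Igf1* correlated with that of *Igfbp4* at r = -0.86, with *Igf1r* at 0.71, with *Irs2* at 0.70 and with *Insr* at 0.48. With the 4 group means taken off, these became -0.27, -0.29, 0.50 and -0.08. The genes most like *Igf1r* over the 12 libraries were *Hmox1* (r = 0.934), *Idua* (0.927) and *Gm45191* (0.918). *Igfbp4* was most like *Slc2a5* (0.942), *Chst7* (0.938) and *Yars* (0.924). *Insr* was most like *Phospho1* (0.942), *Bptf* (0.922) and *Dmtf1* (0.919), and *Irs2* was most like *Adcy7* (0.972), *Zdhhc9* (0.956) and *Mir8104* (0.947). With n = 12 and shared groups, these values are descriptions.

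Fold changes in the ARG1 contrast depended on gene length. With the genes tested divided by exon length into 10 bins of about equal size, the median log2 fold change was -0.25 in the second bin (771 to 1479 bases) and 0.39 in the last (8842 bases and more). *Igf1* (9904 bases), *Insr* (13746 bases) and *Igf1r* (16791 bases) belong to the last bin, and *Irs2* and *Igfbp4* have 6323 and 4416 bases. When the trend of each library on length and GC content was removed at the same TMM scale, *Igf1* still differed, at 1.97 ± 0.20 (SE) on the log2 scale (adjusted p = 0.000233), and so did *Igfbp4*, at -0.71 ± 0.13 (adjusted p = 0.00321). *Irs2* was at 0.95 ± 0.29 (adjusted p = 0.0458). *Igf1r* no longer passed, at 0.83 ± 0.29 (adjusted p = 0.0776), and *Insr* was at 0.18 ± 0.29 (adjusted p = 0.739, all by edgeR).

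**Figure D4:**
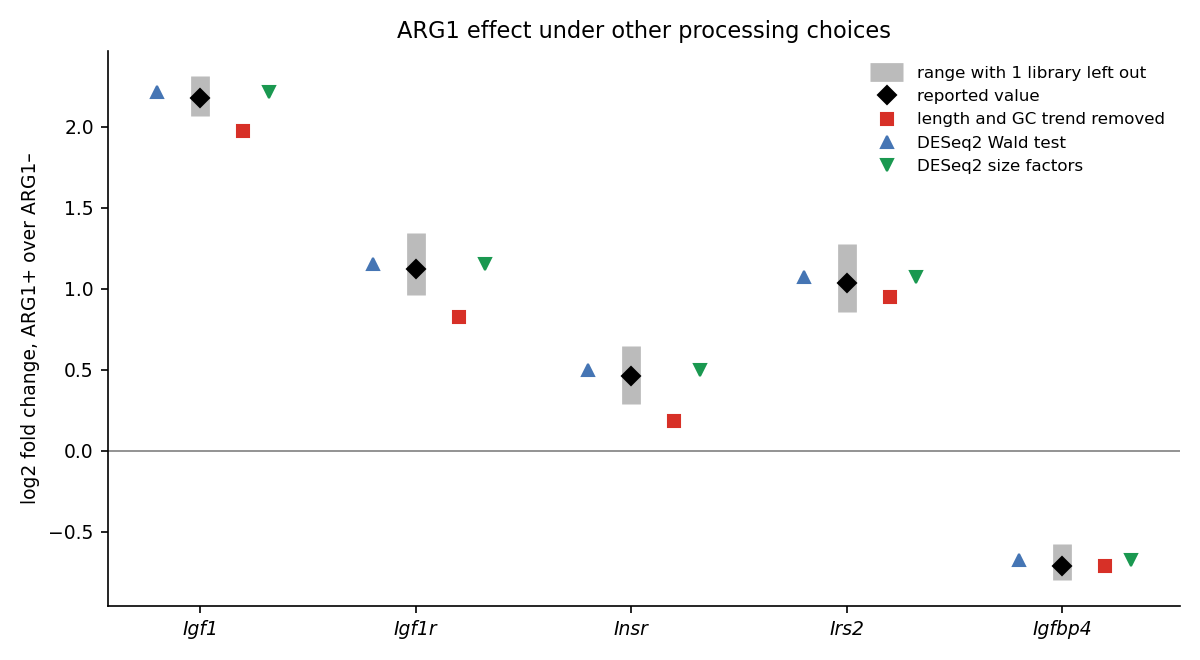
Log2 fold change of ARG1+ over ARG1– microglia for the 5 genes tested, as reported (diamonds), with the length and GC trend removed (squares), by DESeq2's Wald test or DESeq2 size factors (triangles), and the range of 12 fits that each left out 1 library (grey bars). *Igf1* stays at 1.97 or more and *Igfbp4* stays below 0, and removal of the trend lowers *Igf1r* from 1.12 to 0.83.

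The wider IGF and insulin system was read from 102 listed genes, of which 82 were tested. Of these, 8 (9.76%) were higher and 4 (4.88%) lower in ARG1+ microglia, against 6.44% and 9.42% of all genes, and their median log2 fold change was 0.17 against 0.06 for all genes. Without the 6 members, 5 of 77 (6.49%) were higher and 3 (3.90%) lower. The share of higher genes outside the members was thus close to that of all genes. The 5 were *Pik3cb*, *Pik3r1*, *Eif4ebp2*, *Gsk3b* and *Braf*, and the 3 were *Hras*, *Sesn1* and *Txnip*.

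Among other ligands and binding proteins, transcripts were few. *Igf2*, the other ligand of IGF1R, was at 0.449 ± 0.507 CPM in ARG1+ and 0.749 ± 1.26 CPM in ARG1– libraries (SD, n = 6) and did not pass (adjusted p = 0.91, edgeR). *Ins1* and *Insrr* had 0 counts in the 12 libraries and *Ins2* had at most 4. Of the binding proteins only *Igfbp4*, *Igfbp2* and *Igfbp7* were tested. *Igfbp2* was at 4.47 ± 4.43 CPM in ARG1+ and 5.14 ± 4.79 CPM in ARG1– libraries (adjusted p = 0.741), with its highest values in ARG1– female 1 (14.5 CPM) and ARG1+ female 7 (13.4 CPM). The same 2 libraries held the most *Ttr*, a gene of the choroid plexus, at 223 and 178 CPM, and the most *Igf2*, at 3.24 and 1.40 CPM. The part of such cells in these levels was not tested. *Igfbp1*, *Igfbp3* and *Igfals* had 0 counts in the 12 libraries. *Pappa*, the gene of the protease that cleaves IGFBP4, had at most 5 counts in a library, and *Stc1* and *Stc2*, genes of its inhibitors, had 0 and at most 1.

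Of the 13 receptor adaptors 9 were tested, and only *Irs2* passed. *Grb14*, an inhibitory adaptor of the insulin receptor, was too low to be tested, at 0.0070 ± 0.0171 CPM in ARG1+ and 1.02 ± 2.06 CPM in ARG1– libraries (SD, n = 6). It entered the fits without the filter, and some of those that left out 1 library, only through its ARG1– libraries, and its calls as lower there support no difference. *Gab1*, a docking protein, was at 97.3 ± 19.4 CPM in ARG1+ and 78.5 ± 15.6 CPM in ARG1– libraries (adjusted p = 0.247, edgeR), and *Dok1*, an inhibitory docking protein, was at 30.0 ± 5.54 and 41.4 ± 8.77 CPM (adjusted p = 0.0822; SD, n = 6). Of the 17 genes of the PI3K and AKT list 2 were higher and none was lower. *Pik3r1*, which encodes the main regulatory subunit of PI3K, was at 96.2 ± 15.4 CPM in ARG1+ and 64.7 ± 12.8 CPM in ARG1– libraries (SD, n = 6), with all ARG1+ libraries above all ARG1– libraries (log2 fold change 0.57 ± 0.15 (SE), adjusted p = 0.0234). *Pik3cb*, a catalytic subunit, rose by 0.77 ± 0.23 on the log2 scale (adjusted p = 0.0403). *Akt1*, the most abundant AKT gene, was at 301 ± 38.3 and 277 ± 23.0 CPM and did not pass (adjusted p = 0.448).

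Of the 16 genes of the mTOR list 2 were higher and none was lower. *Gsk3b*, a kinase that AKT inhibits, was at 51.9 ± 9.05 CPM in ARG1+ and 30.8 ± 6.33 CPM in ARG1– libraries (SD, n = 6), or 0.77 ± 0.17 (SE) higher on the log2 scale (adjusted p = 0.00915, edgeR). *Eif4ebp2*, a repressor of translation that mTORC1 inactivates, was at 23.6 ± 5.63 and 10.9 ± 4.18 CPM (log2 fold change 1.11 ± 0.34, adjusted p = 0.0413). In the RAS and MAPK list of 11 genes, *Braf* was higher (0.77 ± 0.17, adjusted p = 0.00896) and *Hras* lower (-0.62 ± 0.14, adjusted p = 0.0119), each with no overlap between the populations. None of the 9 tested negative regulators of insulin signalling (1 at an unadjusted p under 0.05, 0 by DESeq2) and none of the 3 tested FOXO factors (1 at an unadjusted p under 0.05, 1 by DESeq2) passed by edgeR. The 1 was *Foxo1*, at 0.41 ± 0.15 (SE) on the log2 scale (adjusted p = 0.0916, edgeR; 0.0194, DESeq2), which also passed by edgeR without ARG1– female 1 or ARG1+ female 15. Of 10 genes known to be activated by FOXO factors, *Sesn1* and *Txnip* were lower with no overlap between the populations, by -0.46 ± 0.09 (adjusted p = 0.00527) and -0.38 ± 0.09 (adjusted p = 0.0123) on the log2 scale, and the other 8 did not pass.

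With the length and GC trend removed, 3 of the 8 higher genes still passed (*Igf1*, *Irs2* and *Gsk3b*), whereas *Igf1r*, *Pik3cb*, *Pik3r1*, *Eif4ebp2* and *Braf* did not (adjusted p from 0.056 to 0.113, edgeR). The log2 fold change went from 1.11 to 1.04 for *Eif4ebp2*, from 0.77 to 0.64 for *Pik3cb*, from 0.57 to 0.37 for *Pik3r1* and from 0.77 to 0.46 for *Braf*. The 4 lower genes were the same as before (*Igfbp4*, *Hras*, *Sesn1* and *Txnip*). The number of higher genes fell to 4 without ARG1– female 2, and to 5 without ARG1– female 13, ARG1+ female 7 or ARG1+ male 12. The number of lower genes rose to 7 without ARG1– male 6. With 1 library left out, *Gsk3b*, *Braf*, *Hras*, *Sesn1* and *Txnip* passed in each of the 12 fits, whereas *Pik3cb*, *Eif4ebp2* and *Pik3r1* missed the limit in 8, 9 and 3 of them (adjusted p up to 0.0797, 0.0972 and 0.0598).

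**Figure D5:**
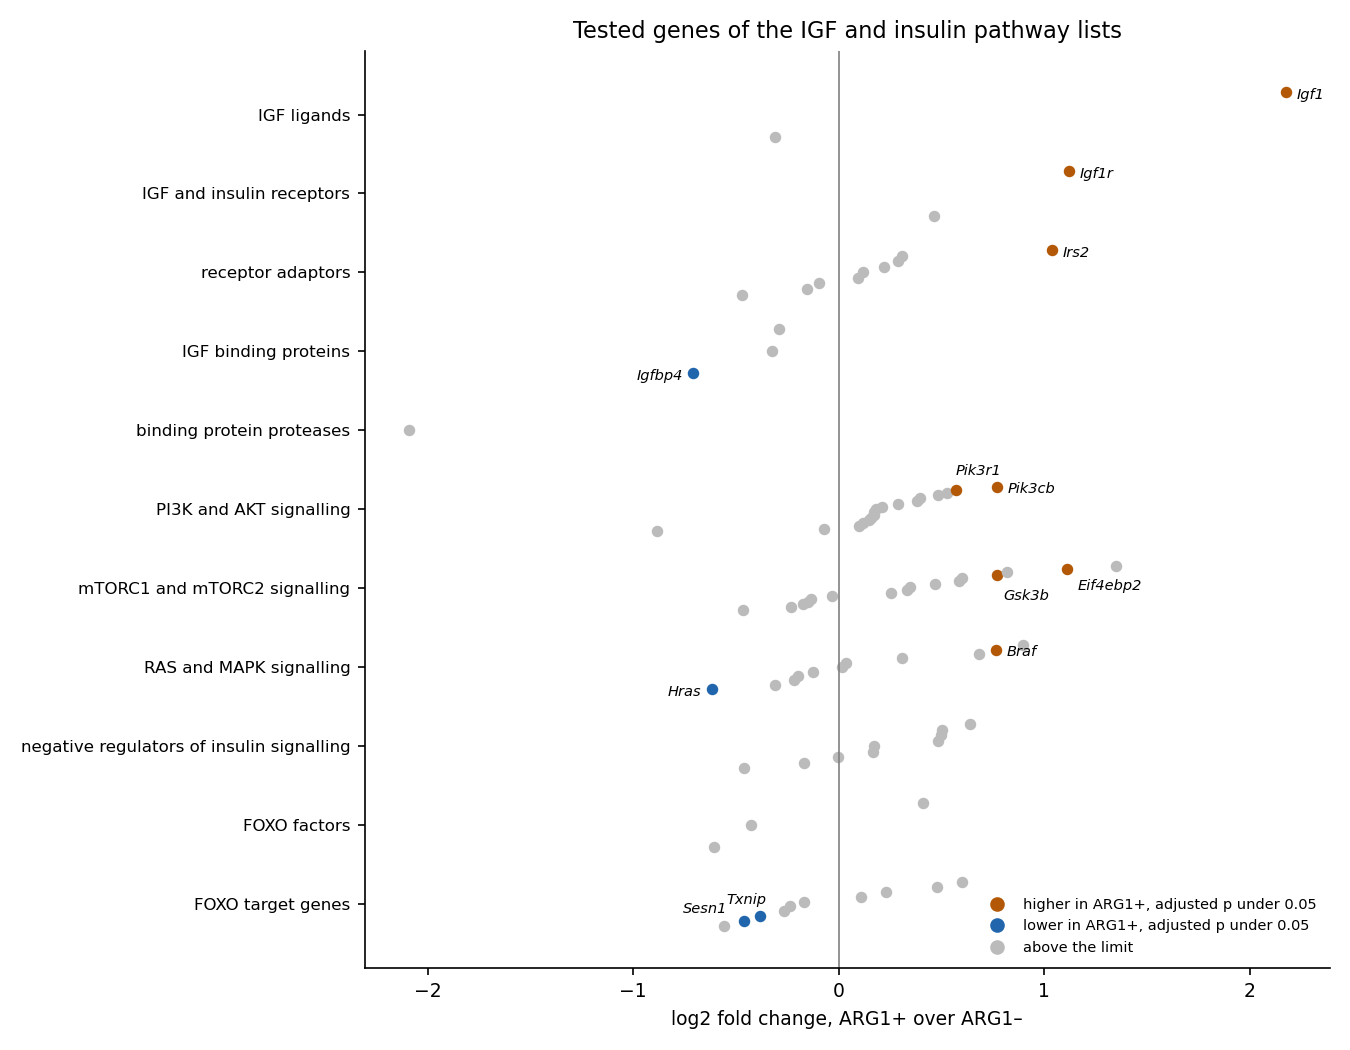
Log2 fold change of ARG1+ over ARG1– microglia for the 82 tested genes of the IGF and insulin lists (points, 1 row of points per list), with genes higher in ARG1+ microglia in orange, lower in blue and the others in grey. The 8 higher genes lie between 0.57 and 2.17, led by *Igf1*, and the 4 lower genes between -0.71 and -0.38.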

How the data were processed

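RNA-seq counts of 12 libraries of sorted microglia were used. Per the labels and the study's methods, cDNA was made with SMART-Seq v4 and libraries with Nextera XT, and the submitters' processing notes name STAR 2.6.1d, GRCm38 and featureCounts 1.5.1 for the single-end reads; the strand setting is not given in the sources used here. The deposited table holds raw gene counts, not normalized, with 1 column per library. Amplified reads without molecular identifiers are not independent molecules.

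Symbols and positions came from GENCODE M21; 260 identifiers without a match held 0.0333% of counts. Counts were filtered with filterByExpr on the 4 groups, scaled by TMM and tested with edgeR 4.0.16 (R 4.3.3), with glmQLFit and glmQLFTest, a model of population plus sex on the 12 libraries, and Benjamini–Hochberg adjustment over the 16908 genes at a limit of 0.05. For single sexes, and for the difference between them, each of the 4 groups had its own mean. The log2 fold change divided by the square root of F gave the SE. Log2 CPM for correlations used a prior count of 2. The edgeR script was tested on simulated data. All 12 pairs of libraries of the same group differed by more than sampling noise (chi-square 30.9 to 98.4 times the degrees of freedom).

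The members, the pathway and marker lists and the tests were chosen with earlier results of these data known. Named genes are the 6 members, every pathway ligand, receptor, adaptor, binding protein or protease past the limit, up to 4 genes with the smallest p in each other list, and the 5 (*Igf1*) or 3 (other members) genes with the highest correlation, and for *Igf1* also the 5 highest with group means taken off; other genes were chosen after their values were seen, and some items are not reported here. Alternatives were DESeq2 size factors, no filter, at least 10 counts in every library, DESeq2 1.42.0, a term for the libraries numbered 13 to 16, removal of each library's trend on length and GC content (mgcv 1.9.3), ARG1 status alone, and each library left out.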

Additional observations from a re-analysis of the deposited data

Results flagged for a closer look

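Among 40 sets of 6 libraries searched for a value far from the other 5, 9 had one. Chance would give about 1 in 20, or 2 here, for independent and normally distributed values. CPM near 0 is skewed and the sets share libraries, so no excess over chance can be read from these counts. *Igfbp4* was at 366 CPM in ARG1– female 1, with the next ARG1– library at 265 CPM. The same library was far above the other ARG1– libraries for *Igf2* (3.24 CPM, next 0.733) and *Igfbp2* (14.5 CPM, next 5.92). ARG1+ female 7 was far above the other ARG1+ libraries for *Igfbp2* (13.4 CPM, next 3.44) and for *Pik3r1* (126 CPM, next 96.2). *Igfbp7* was at 0.997 CPM in ARG1+ female 15 (next 0.750). *Htra1*, the gene of a secreted serine protease that cleaves IGF binding proteins, was at 1.82 CPM in ARG1+ male 11 (next 0.238) and at 8.30 CPM in ARG1– male 5 (next 0.690). *Eif4ebp2* was low in ARG1– male 6, at 2.88 CPM, with the next ARG1– library at 10.5 CPM. Without ARG1– female 1 the log2 fold change of *Igfbp4* was -0.58 and still passed the edgeR test.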

How the results depend on the processing

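*Igf1* and *Igfbp4* kept direction and call in the 8 other settings (log2 fold changes 1.69 to 2.23 and -1.01 to -0.67). Without filter, 665 genes passed in females and 501 in males, and by DESeq2 2365, 2294 and, between sexes, 214. With libraries 13 to 16 as a term, *Irs2* was at 1.06 (adjusted p = 0.0542, edgeR). The length and GC trend, removed at the TMM scale, left 3 higher pathway genes and *Igf1r* at 0.83. In the form run first, kept as an alternative chosen after seeing the data, the mean of each library was removed too, and the median log2 fold change of all genes was -0.26, against 0.04 with the trend alone removed and 0.06 as reported, and the share of higher genes among those called was 12.3%, against 36.6% and 40.6%. It gave 4064 genes (1841 in females, 2263 in males), 1 higher and 14 lower pathway genes, *Igf1r* at 0.52, *Irs2* at 0.66 and *Insr* reversed at -0.13. The cause was not tested.

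With 1 library left out, 1753 (without ARG1+ male 12) to 2669 genes passed, 91 to 1108 in females, 8 to 1187 in males and 0 to 10 between sexes. In females 754, 379, 517, 91, 193, 436 and 552 genes were left without ARG1– female 1, 2 or 13, ARG1+ female 7, 8 or 15 or ARG1+ male 16. In males 348, 266, 431, 141, 184, 8 and 27 were left without ARG1+ female 7, 8 or 15, ARG1– male 6 or 14 or ARG1+ male 12 or 16. Between sexes 3 and 10 passed without ARG1– female 13 and ARG1– male 5. Pathway counts were 4 to 10 higher and 4 to 7 lower. Log2 fold changes were 2.06 to 2.31 (*Igf1*), 0.96 to 1.34 (*Igf1r*), -0.80 to -0.58 (*Igfbp4*), 0.29 to 0.65 (*Insr*) and 0.85 to 1.28 (*Irs2*), and the log2 ratio difference was 2.72 to 3.09. The sex difference of *Igf1r* reversed in 2 fits (without ARG1+ female 7 or ARG1– male 14, range -0.15 to 0.51) and the male *Insr* effect in 1 (without ARG1– male 14, range -0.55 to 0.041). *Igf2r* entered some fits with an adjusted p of at least 0.08. No paired analysis was possible because the groups share no replicate number in the labels, which do not say which libraries came from the same pool of mice.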
